A study of Gallus gallus with 3 samples.

Results

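This report describes 10 genes of the hormone-producing cells of the gut lining in the jejunal mucosa of chickens. They comprise 8 genes for peptides released by enteroendocrine cells or enteric nerves (GIP, NTS, GCG, CCK, SST, PYY, GHRL and TAC1) and 2 granins (CHGA and CHGB). They were taken by symbol from a fixed list, and all 10 were found among the 15675 rows with values. The study set Leuang Hang Kao breeder hens of 28 weeks held at 36 °C for 6 h against hens held at 23 °C. In each arm, RNA of 12 hens went into 3 pools, with 4 hens in each. The 3 pools at 23 °C were analysed here and are called control pools 1, 2 and 3. Heated hens were not analysed here, so every statement is about levels and their spread among control pools, and none is about heat. Each value stands for a pool of hens, so the SD does not give the variation between single birds.

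Enteroendocrine cells are scattered single cells of the gut epithelium that sense nutrients and release peptide hormones into the blood and nearby tissue. The peptides are made as longer precursors, cut by prohormone convertases such as PCSK1 and PCSK2, and stored in dense granules together with granins, acidic proteins that help to form the granule. Some of these peptides, among them substance P from TAC1, somatostatin and neurotensin, are also made by neurons of the gut wall. In bulk tissue, fewer cells of a type and less RNA per cell cannot be told apart.

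Values are FPKM, a measure of reads that is scaled to transcript length and library size, so levels of different genes can be compared per length. They are given for pools 1, 2 and 3 in that order, with mean ± SD over the 3 pools. The sums of FPKM were 936084 to 948742 per pool, and 11217 to 11810 genes reached 1 FPKM. The deposited read counts sum to 10380625 to 11660879 per pool but are unrelated to the FPKM beside them, so they were not used for any level. The reads behind a given value are therefore unknown and no interval for counting error is given. Of 10 enteroendocrine markers, 8 averaged at least 1 FPKM, against 11570 of all 15675 rows, and all 10 were above 0 in every pool. CHGA and CHGB are among these markers as well as among the genes described here. The count is near the share of all rows, so it shows only that the marker transcripts were detected. The 2 under 1 FPKM were the transcription factors RFX6, at 0.64, 0.74 and 0.84 FPKM, and NEUROD1, at 0.06, 0.46 and 0.22 FPKM.

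The 10 genes fell into a high and a low set. GIP, NTS, CHGA, GCG, CCK and SST averaged between 76.7 and 538 FPKM, and TAC1, GHRL, CHGB and PYY between 1.88 and 5.37 FPKM. The summed level of the 10 genes was 1251, 1432 and 1078 FPKM, or 0.133%, 0.151% and 0.115% of all FPKM in the pool. The 6 high genes supplied 99.4%, 98.6% and 98.6% of that sum. No value of the low set reached any value of the high set in any pool. The highest value in the low set was 8.25 FPKM for TAC1 in pool 2, and the lowest in the high set 59.06 FPKM for CCK in pool 3.

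**Figure D1:**
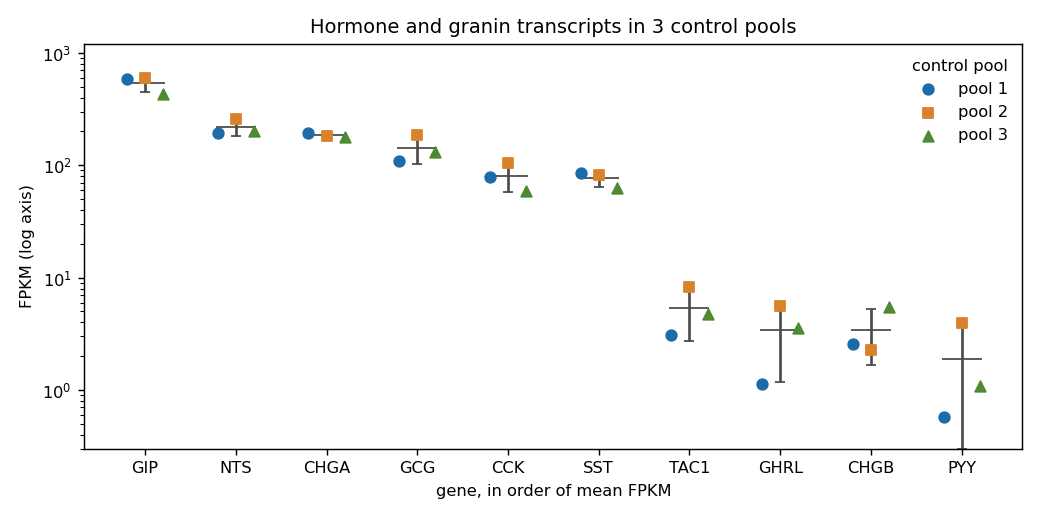
FPKM on a log axis of the 10 hormone and granin genes in control pools 1, 2 and 3 (points), with the mean (dash) and SD (bars, n = 3 pools; the lower bar of PYY is cut at the axis). GIP lies at 431.4 to 598.47 FPKM, and TAC1, GHRL, CHGB and PYY all lie below 10 FPKM.

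GIP, the incretin hormone that K cells of the upper small intestine release after a meal in mammals, was the most abundant. It stood at 583.81, 598.47 and 431.4 FPKM, with a mean of 538 ± 92.5 FPKM, and ranked 244 among the 15675 rows. Pools 1 and 2 were close and pool 3 was lower. GIP alone made up 46.7%, 41.8% and 40.0% of the summed FPKM of the 10 genes. CCK, made by I cells and known for gallbladder contraction and the release of pancreatic enzymes in mammals, stood at 79.16, 104.67 and 59.06 FPKM. Its mean was 81.0 ± 22.9 FPKM. Both hormones were lowest in pool 3, and CCK was highest in pool 2. GIP exceeded CCK 7.38-fold, 5.72-fold and 7.30-fold in pools 1, 2 and 3.

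NTS and GCG, known from cells of the lower intestine in mammals, were next among the peptides. NTS encodes neurotensin, which slows gut movement, and stood at 192.54, 258.32 and 200.17 FPKM, with a mean of 217 ± 36.0 FPKM. GCG encodes proglucagon, the precursor of the glucagon-like peptides, and stood at 108.93, 187.66 and 131.32 FPKM, with a mean of 143 ± 40.6 FPKM. Pool 2 was the high one for both. In the FPKM as deposited, pool 1 was the low one for both, with pool 3 between. Rescaled by the median ratio, NTS was at 201, 257 and 191 FPKM, so its lowest pool was then pool 3. NTS exceeded GCG in each pool, by 1.77-fold, 1.38-fold and 1.52-fold.

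PYY, a peptide that L cells of the mammalian lower gut release together with those of GCG, was the lowest of the 10 genes. It stood at 0.57, 3.97 and 1.09 FPKM, with a mean of 1.88 ± 1.83 FPKM. Pool 2 was 6.96 times pool 1, and without pool 2 the mean was 0.830 FPKM, under the minimum of 1 FPKM used here. GCG exceeded PYY 191-fold, 47.3-fold and 120-fold in pools 1, 2 and 3. On the scale of log2(FPKM + 1) the difference was 5.79 ± 0.47. NTS exceeded PYY by 6.41 ± 0.64 on that scale. With 0.1 added in place of 1, these differences became 6.55 and 7.18, a move beyond their SD.

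SST encodes somatostatin, which D cells release to inhibit other endocrine cells. It stood at 85.78, 81.9 and 62.44 FPKM, with a mean of 76.7 ± 12.5 FPKM. As with GIP, pools 1 and 2 were close and pool 3 was lower. GHRL encodes ghrelin, in birds known mainly from the proventriculus, the glandular stomach. It stood at 1.13, 5.65 and 3.55 FPKM, with a mean of 3.44 ± 2.26 FPKM. Pool 1 was the low one. SST exceeded GHRL by 4.26 ± 0.94 on the log2(FPKM + 1) scale.

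TAC1 encodes substance P and neurokinin A, which are transmitters of enteric neurons and are also made by some enterochromaffin cells in mammals. It stood at 3.11, 8.25 and 4.74 FPKM, with a mean of 5.37 ± 2.63 FPKM. Pool 2 was 2.65 times pool 1. The 16 measured markers of enteric neurons summed to 15.6, 24.3 and 24.9 FPKM. Of these, 5 averaged at least 1 FPKM, against 11570 of all 15675 rows. All of those 5 were lowest in pool 1, like TAC1 and 51.3% of all genes averaging at least 1 FPKM. Of the 5, 4 were highest in pool 3, like 52.0% of all genes, and 1 in pool 2, like TAC1 and 23.0% of all genes. UCHL1, a deubiquitinase of neurons, stood at 4.71, 6.19 and 5.07 FPKM. NOS1, the nitric oxide synthase of inhibitory enteric neurons, averaged 0.0200 FPKM. The part of neurons in the level of TAC1, SST or NTS was not tested.

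The 2 granins differed widely. CHGA, the general marker of endocrine granules, stood at 193.2, 180.83 and 178.95 FPKM, with a mean of 184 ± 7.74 FPKM. Its pools were nearly equal in the FPKM as deposited, with a coefficient of variation of 4.20%, against 16.3% to 97.6% for the other 9 genes. Rescaled by the median ratio, CHGA was at 202, 180 and 171 FPKM, so its pools lay farther apart. CHGB stood at 2.57, 2.26 and 5.48 FPKM, with a mean of 3.44 ± 1.78 FPKM, and was the only one of the 10 with its highest value in pool 3. CHGB minus CHGA was -5.45 ± 0.57 on the log2(FPKM + 1) scale. Another granin, SCG2, which is not among the 10, stood at 24.8, 17.07 and 18.99 FPKM and exceeded CHGB by 2.32 ± 0.63 on the log2(FPKM + 1) scale.

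The order of mean level was GIP, NTS, CHGA, GCG, CCK, SST, TAC1, GHRL, CHGB and PYY. Neighbouring pairs were formed by sorting on the mean FPKM of these same pools, so the sorting itself favours the direction of that order. Counts of their directions are therefore a description only. Of the 9 neighbouring pairs, 4 had 1 direction in every pool and a mean difference above its SD. These were GIP over NTS, by 1.30 ± 0.26 on the log2(FPKM + 1) scale, GCG over CCK, by 0.81 ± 0.34, SST over TAC1, by 3.68 ± 0.64, and TAC1 over GHRL, by 0.59 ± 0.32. The other 5 changed order between pools and did not differ beyond their spread. NTS minus CHGA was 0.22 ± 0.26, CHGA minus GCG 0.40 ± 0.44 and CCK minus SST 0.05 ± 0.26. GHRL minus CHGB was -0.08 ± 0.96 and CHGB minus PYY 0.74 ± 1.19. The changes of order in these 5 mostly rested on pool 2, since 8 of the 9 pairs kept 1 direction without it. For CCK and SST, and for GHRL and CHGB, that direction was against the order above. CCK minus SST was -0.11 and -0.08 in pools 1 and 3, and GHRL minus CHGB -0.75 and -0.51. Agreement is also easier with 2 pools than with 3.

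Of 11 pairs chosen by role, among them CHGB and CHGA, GIP and CCK, and GCG and PYY, all 11 kept their direction in the 3 pools. GIP exceeded GCG by 1.93 ± 0.42 on the log2(FPKM + 1) scale, and NTS exceeded GCG by 0.63 ± 0.18. TAC1 minus SST was -3.68 ± 0.64 and TAC1 minus NTS -5.17 ± 0.38. Several of these pairs share a gene, and SST and TAC1 are also a neighbouring pair above, so they are not 11 independent results. The pairs were also chosen with earlier results of these data known, so the count is a description only. A two-sided permutation test that flips signs, exact over 3 pools, cannot go below p = 0.25. Its smallest Benjamini-Hochberg adjusted p was 0.562 over the 9 neighbours and 0.25 over the 11 pairs. No difference could therefore pass a threshold of 0.05. The neighbours were also ordered by the values tested, so their p-values are a description only.

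The make-up of the peptide transcripts does not depend on how a library was scaled. Of the summed FPKM of the 8 peptide genes, GIP held 55.3%, 47.9% and 48.3% in pools 1, 2 and 3, and NTS held 18.2%, 20.7% and 22.4%. GCG held 10.3%, 15.0% and 14.7%, so pool 1 was the low one. CCK held 7.50%, 8.38% and 6.61%, and SST 8.13%, 6.56% and 6.99%. TAC1, GHRL and PYY each held under 1% in every pool. Pool 1 thus had the highest shares of GIP and SST and the lowest of NTS, GCG, TAC1, GHRL and PYY, while CCK had its lowest share in pool 3.

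**Figure D2:**
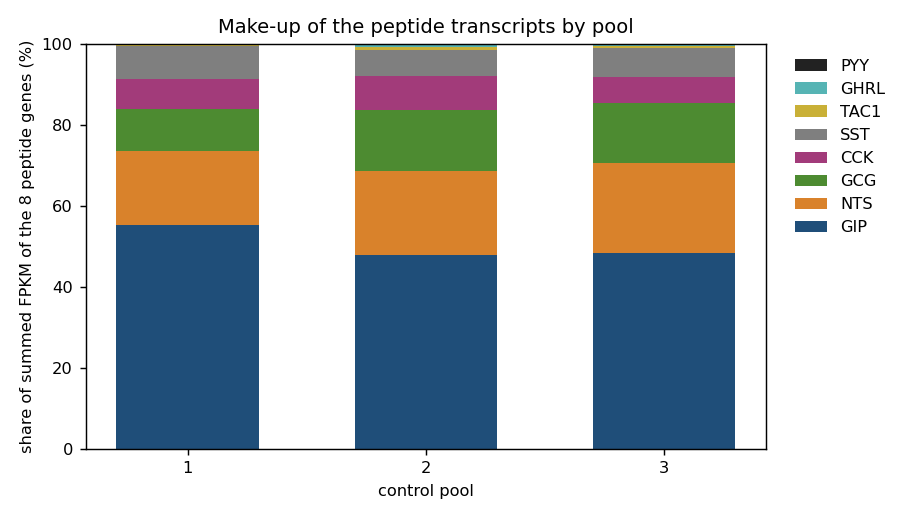
Share in percent of each gene in the summed FPKM of the 8 peptide genes, stacked, for control pools 1, 2 and 3. GIP holds 55.3% in pool 1, 47.9% in pool 2 and 48.3% in pool 3, and TAC1, GHRL and PYY form the thin bands at the top.

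Between pools, the low genes varied most. A gene was called different between pools where its highest and lowest values lay more than 1 apart on the log2(FPKM + 1) scale. This held for 3 of the 10 genes, against 7.06% of the 11570 genes averaging at least 1 FPKM. The 3 were PYY, with a range of 1.66, GHRL, with 1.64, and TAC1, with 1.17, and CHGB fell just short with 0.99. All are of the low set, so the count is 3 of 4 there, against 10.1% of the 5002 genes with a mean of 1 to 10 FPKM. In the high set it is 0 of 6, against 4.72% of the 6568 genes averaging at least 10 FPKM. Their ranges ran from 0.11 for CHGA to 0.82 for CCK. The calls rest on single pools, since only PYY was called without pool 1 and only GHRL without pool 2. Without pool 2, the mean of PYY fell below 1 FPKM, so it was no longer counted. Its other values, 0.57 and 1.09 FPKM, lay less than 1 apart on that scale, so no call would have been made either way.

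The spread of each gene was also set against genes of its own level band. The SD of log2(FPKM + 1) was 0.41 for CCK and 0.40 for GCG, larger than in 91.3% and 90.6% of genes averaging at least 10 FPKM, whose median SD was 0.15. GIP, SST and NTS had SDs of 0.26, 0.24 and 0.23, larger than in 78.1%, 74.7% and 72.0% of that band. CHGA, at 0.06, exceeded 12.7% of it. In the band of 1 to 10 FPKM, with a median SD of 0.22, PYY at 0.87 and GHRL at 0.84 exceeded 98.7% and 98.5% of genes, TAC1 at 0.59 exceeded 93.5% and CHGB at 0.54 exceeded 91.4%. Thus, in the FPKM as deposited, 9 of the 10 genes had a larger SD than most genes of their band, and CHGA a smaller one. The bands were not compared after rescaling, which widened the spread of CHGA.

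Pool 2 held the highest value of 7 of the 10 genes (6 after rescaling by the median ratio), against 23.0% of all genes averaging at least 1 FPKM. These were GIP, NTS, GCG, CCK, PYY, GHRL and TAC1. Of the 6 high genes it was 4, against 26.2% of genes averaging at least 10 FPKM. GIP is a weak case, since with the pools rescaled by their median ratio it was at 610.6, 596 and 411 FPKM and so highest in pool 1. Pool 1 was highest for 2 of the 10 genes, against 24.7% of all genes, and pool 3 for 1, against 52.0%. Pool 1 was lowest for 5, against 51.3% of all genes, pool 2 for 1, against 20.7%, and pool 3 for 4, against 27.6%. By the median ratio, pool 1 was lowest for 4 and pool 3 for 5, since the lowest value of NTS was then in pool 3. The median deviation of the 10 genes from their own mean was -0.20, 0.33 and -0.09 in log2(FPKM + 1), against -0.07, 0.00 and 0.07 for all genes. These are single pools, so the difference of pool 2 has no replicate.

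**Figure D3:**
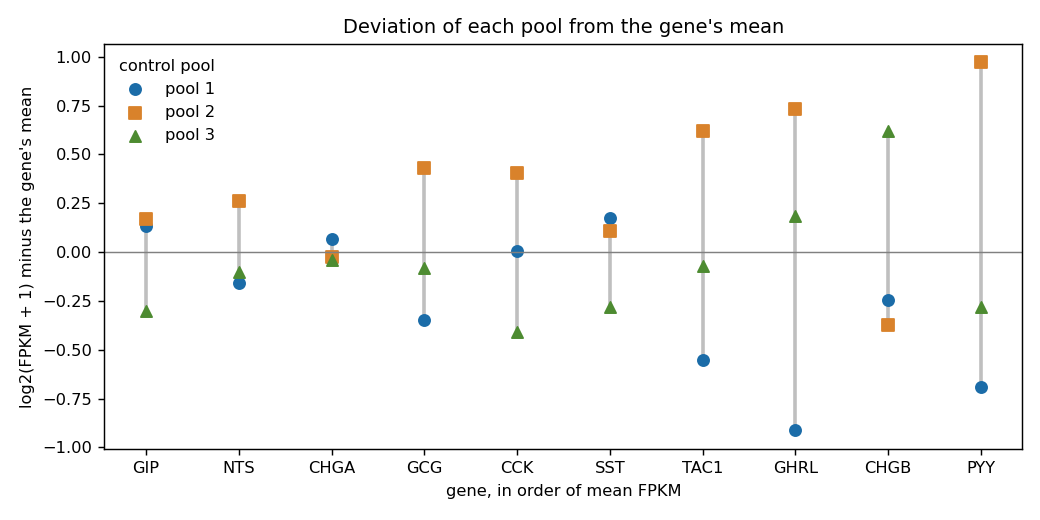
Deviation of each control pool from the gene's mean over the 3 pools, in log2(FPKM + 1), for the 10 genes in order of mean level. Pool 2 (squares) is the top point for 7 genes, or 6 by the median ratio, where GIP is highest in pool 1, and the widest ranges are those of PYY and GHRL.

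The pools also differed in other cell types, whose summed markers had another pool order than the summed 10 genes. The 12 smooth muscle markers summed to 524, 935 and 1512 FPKM and the 12 stroma markers to 245, 471 and 761 FPKM. In all 24 pool 1 was the lowest and pool 3 the highest. Of all genes averaging at least 1 FPKM, 51.3% were lowest in pool 1 and 52.0% highest in pool 3. Enterocyte markers, whose most abundant genes were APOA1 and FABP2, summed to 48876, 40306 and 21034 FPKM. Of the 15, 14 were lowest in pool 3, against 27.6% of all genes. Pool 1 was the highest for 12, against 24.7%, and pool 2 for 3, against 23.0%. These 3, FABP2, ANPEP and MTTP, were lowest in pool 3 and so had the pool order of GIP and CCK. Goblet cell markers had median deviations of 0.06, 0.00 and -0.02. Their sum of 1868, 2130 and 2104 FPKM was highest in pool 2, as that of the 10 genes was, but lowest in pool 1. The crypt list had median deviations of -0.42, 0.14 and 0.32. Of the 18 other lists, 2 had their largest median deviation in pool 2, as the 10 genes did. They were peptide degradation, at 0.08, and the 3 pancreas markers averaging at least 1 FPKM, at 0.22. By sum, more lists were highest in pool 2. Prohormone processing summed to 164, 170 and 167 FPKM. Other gut peptides summed to 589, 597 and 545 FPKM and peptide degradation to 1121, 1134 and 837 FPKM, both in the pool order of the summed 10 genes. High values in pool 2 are therefore not particular to the 10 genes. Of the 10 peptide degradation genes, 4 were highest in pool 2, against 23.0% of all genes averaging at least 1 FPKM. Another 4 were highest in pool 3, against 52.0%. Of the 3 pancreas markers, 1 was highest in each pool. The part of these cell types in the pool differences of the 10 genes was not tested.

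**Figure D4:**
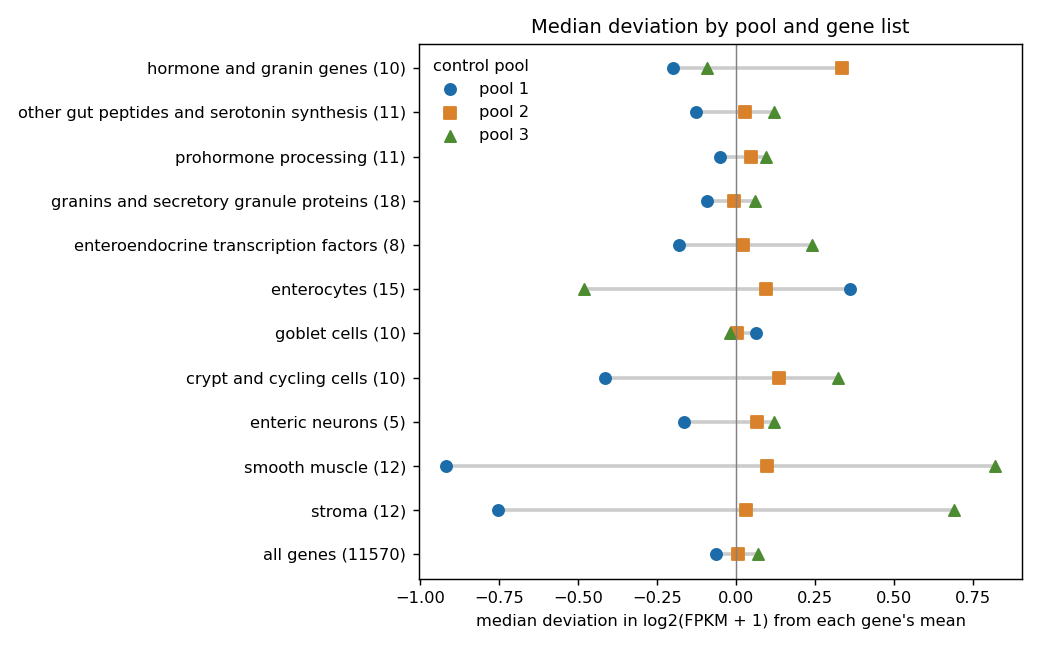
Median deviation of each control pool from each gene's mean, in log2(FPKM + 1), by gene list, over genes averaging at least 1 FPKM (their number in parentheses). The 10 hormone and granin genes are highest in pool 2, at 0.33, while smooth muscle and stroma are highest in pool 3, at 0.82 and 0.69.

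The 3 genes outside the 10 whose deviations over the pools came nearest to the mean deviations of the 10 (-0.25, 0.33 and -0.08) were GAL3ST2, PXDC1 and ARHGAP36. Nearness was the root mean square difference over 3 pools among 8603 genes averaging at least 5 FPKM, and 15 of these lay within 0.05. GAL3ST2, a sulfotransferase of sugar chains, stood at 55.0, 84.0 and 63.32 FPKM. PXDC1 averaged 5.55 ± 1.32 and ARHGAP36 7.14 ± 1.83 FPKM. With 3 pools, such likeness is a description of these libraries only.

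Of the other gut peptides, SCT and MLN reached the levels of the high set. Of 26 listed genes for other peptides and serotonin synthesis, 19 were measured, with a median of 1.24 FPKM. Of the 19, 11 averaged at least 1 FPKM, against 11570 of all 15675 rows. Of the 11, 2 differed between pools by more than 1, against 7.06% of all genes averaging at least 1 FPKM. The count was 1 without pool 1, 1 without pool 2 and 0 without pool 3, against 1.76%, 5.91% and 1.62% of all genes. SCT, the precursor of secretin, which stimulates pancreatic bicarbonate, stood at 422.65, 391.44 and 371.23 FPKM. Its mean of 395 ± 25.9 FPKM lies between those of GIP and NTS. MLN, the precursor of motilin, which drives contractions of the fasting gut, stood at 74.77, 105.33 and 77.22 FPKM and was highest in pool 2, as NTS and GCG were. With SCT and MLN added to the 8 peptides, GIP held 34.7% ± 2.75 of the sum, SCT 25.8% ± 2.91 and MLN 5.53% ± 0.638. NUCB2, the precursor of nesfatin, averaged 41.0 ± 3.89 FPKM. IAPP, the islet peptide amylin, averaged 19.6 ± 5.98 FPKM. Of 18 listed pancreas markers, 13 were measured, and the rest, INS among them, were not found by symbol, so their levels are unknown. Of the 13, 10 had a mean under 1 FPKM, against 4105 of all 15675 rows. Among them were the pancreatic factors PTF1A, at 0.0267 FPKM, and PDX1, at 1.43, 0.38 and 0.25 FPKM, both named after their values were seen. Whether pancreas RNA was present was not tested. The other measured markers were IAPP, the amylase gene AMY1A, at 9.83, 8.03 and 14.78 FPKM, and CPA5, a carboxypeptidase gene, with a mean of 2.03 FPKM.

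Genes that process prohormones were measured well below the leading hormones. All 11 measured of 13 listed averaged at least 1 FPKM, against 11570 of all 15675 rows. Their median was 9.94 FPKM, against 78.8 FPKM for the 10 hormone and granin genes and 6.64 FPKM for all rows. None of the 11 differed between pools by more than 1, against 7.06% of all genes averaging at least 1 FPKM. With a pseudocount of 0.1, 1 did, against 11.9% of all genes. The carboxypeptidases CPE and CPD, of which CPE trims the ends of cut hormones, averaged 39.8 ± 4.34 and 34.2 ± 0.216 FPKM. The convertases PCSK5 and PCSK1 averaged 22.8 ± 2.70 and 19.2 ± 2.10 FPKM. PCSK2, the convertase that makes glucagon from proglucagon in islets, stood at 3.12, 4.83 and 4.41 FPKM. PCSK1, which in L cells makes the glucagon-like peptides, exceeded it by 6.07-fold, 3.55-fold and 4.84-fold, a difference of 1.99 ± 0.32 on the log2(FPKM + 1) scale.

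Of 26 listed granins and granule proteins, 24 were measured. Of these, 18 averaged at least 1 FPKM, against 11570 of all 15675 rows. Of the 18, 2 differed between pools by more than 1, against 7.06% of all genes averaging at least 1 FPKM. The count was 0 without pool 1 and 0 without pool 3. GNAS, the stimulatory G protein that is not particular to endocrine cells, averaged 41.1 ± 2.15 FPKM, and SCG2 20.3 ± 4.02 FPKM. The small GTPases RAB27A and RAB3B, which act in granule release, averaged 11.3 ± 5.23 and 11.0 ± 1.16 FPKM. RAB27A was at 17.35 FPKM in pool 3, and at 8.01 and 8.62 FPKM in pools 1 and 2. The other gene with a range above 1 was PTPRN, a membrane protein of the granule, at 5.97, 3.98 and 2.36 FPKM, named after its values were seen.

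Transcription factors of endocrine cells were low. All 20 listed factors were measured, and 8 averaged at least 1 FPKM, against 11570 of all 15675 rows. None of the 8 differed between pools by more than 1, against 7.06% of all genes averaging at least 1 FPKM. With a pseudocount of 0.1 or after rescaling by the median ratio, 1 did, against 11.9% and 6.35% of all genes. The median of the 20 was 0.688 FPKM. The highest, MLXIPL, which responds to carbohydrate and is not particular to endocrine cells, stood at 103.84, 73.96 and 52.33 FPKM. Its pools had the order of the enterocyte sum. FEV, a factor of serotonin-producing cells, averaged 11.8 ± 1.94 FPKM, FOXA1 10.2 ± 2.35 and FOXA2 3.54 ± 1.45 FPKM. The endocrine progenitor factor NEUROG3 was at 0.12, 0.12 and 0.36 FPKM and INSM1 at 0.89, 1.31 and 1.0 FPKM, both named after their values were seen.

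**Figure D5:**
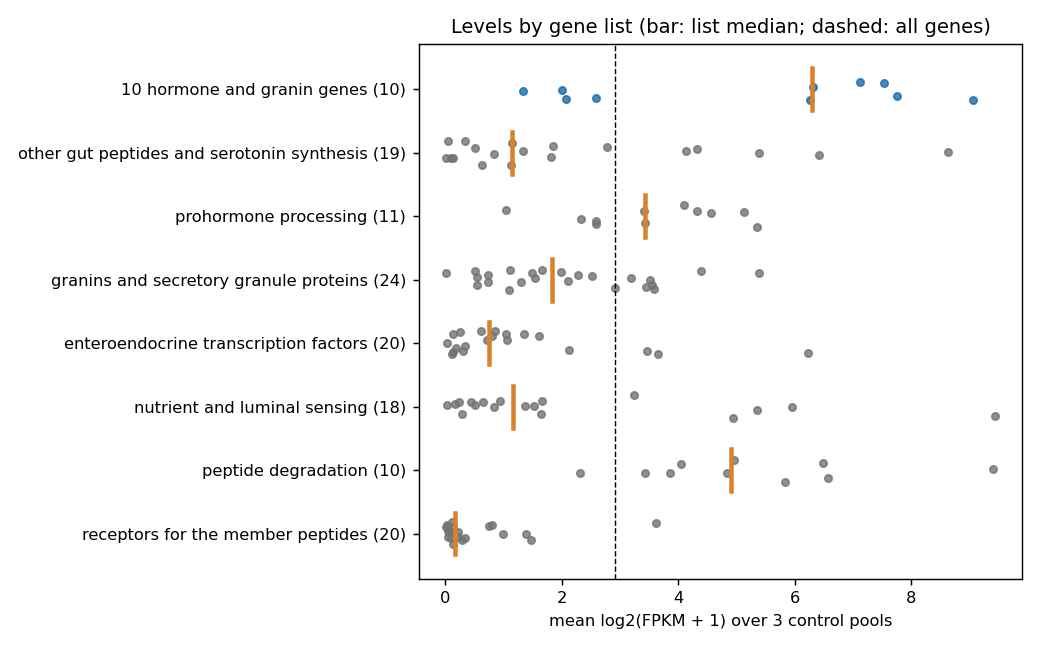
Mean log2(FPKM + 1) over the 3 control pools of each measured gene in 8 gene lists (points; number of genes in parentheses), with the median of each list (bar) and of all 15675 rows (dashed line). The median of the 10 hormone and granin genes is 6.29, against 2.91 for all rows, and that of the receptors is 0.18.

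The measured receptors for the peptides were mostly at or near 0 in the same tissue. CCKAR, GHSR and NTSR2 were listed but not found by symbol, so their levels are unknown. Of 23 listed receptors, 20 were measured, with a median of 0.133 FPKM. Of the 20, 4 averaged at least 1 FPKM, against 11570 of all 15675 rows. SORT1, a sorting receptor that binds neurotensin and many other ligands, averaged 11.4 ± 1.76 FPKM. NPY6R, a receptor of the neuropeptide Y family, was at 3.68, 1.96 and 0.57 FPKM. It was the only receptor of the 4 with a range above 1, against 7.06% of all genes, and not without pool 1 or pool 3. GLP2R, the receptor of glucagon-like peptide 2, averaged 1.67 ± 0.599 FPKM, and NPY4R stood at 0.75, 0.81 and 1.48 FPKM. GLP1R was listed at 0 in pools 1 and 2 and at 0.12 FPKM in pool 3, and GIPR at 0, 0.19 and 0.31 FPKM. These 2 receptors were named after their values were seen.

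Peptidases that cut such hormones were abundant. All 10 listed were measured averaging at least 1 FPKM, against 11570 of all 15675 rows, with a median of 29.6 FPKM. The aminopeptidases ANPEP and ENPEP, brush border enzymes that also digest food peptides, averaged 682 ± 103 and 96.7 ± 27.2 FPKM. DPP4, the peptidase that inactivates the incretins in mammals, stood at 91.75, 105.25 and 71.23 FPKM. ACE, the angiotensin-converting enzyme, was the 1 gene of the 10 with a range above 1, against 7.06% of all genes. It was at 73.07, 80.08 and 29.44 FPKM, and had no such range without pool 3. Of the 10, 5 were lowest in pool 3, against 27.6% of all genes averaging at least 1 FPKM, and 4 in pool 1, against 51.3%. Enterocyte markers, which include ANPEP, were also low in pool 3, and their part in these levels was not tested.

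Of 24 listed genes for sensing of nutrients and luminal contents, 18 were measured. Of these, 9 averaged at least 1 FPKM, against 11570 of all 15675 rows. Among the 9, 1 differed between pools by more than 1, against 7.06% of all genes averaging at least 1 FPKM. The most abundant were carriers of absorptive cells. The glucose carrier SLC5A1 averaged 710 ± 181 FPKM, and the peptide carrier SLC15A1 stood at 108.21, 57.0 and 36.54 FPKM, the 1 gene with a range above 1, and not without pool 1 or pool 3. TRPM5, a cation channel of taste and tuft cells, averaged 40.0 ± 3.63 FPKM, and LPAR5, a receptor for lysophosphatidic acid, 30.6 ± 8.87 FPKM. Pool 1 was the highest for 6 of the 9 genes, against 24.7% of all genes averaging at least 1 FPKM. Pool 3 was the lowest for 6, against 27.6%.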

How the data were processed

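RNA of jejunal mucosa was sequenced in 3 control pools of 4 hens each. Per the labels' protocols, poly(A) selection or ribosomal RNA removal preceded random-primed, PCR-amplified libraries. Tools named, per the submitters' processing notes, were HISAT2 2.0.1, HTSeq 0.6.1, cutadapt 1.9.1 and DESeq2, with the build GRCg6a. Not given in the sources used here were the annotation, the use of strand and each tool's role, so reads of overlapping genes may be shared. FPKM, scaled to length and library size, and separate read counts were deposited by the authors, per the file headers. The deposited counts are best called estimated counts, since 86.8% to 86.9% are whole within 1e-06. Pearson's r with FPKM across rows, in log2 after adding 1, was 0.005 to 0.009, and GCG had counts of 0, 1 and 0 at 108.93 to 187.66 FPKM, so counts served only this check. Another 6 value columns belong to no sample in the labels and were left out. In 19 rows the symbol is a date, and 1 of 15676 rows has no symbol or FPKM.

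All samples form 1 group, so no comparison between groups and no count model was made. Tests were exact two-sided sign-flip permutation tests with Benjamini-Hochberg adjustment. Nothing shows what part of the spread between pools is technical. Differences and spreads are on the log2(FPKM + 1) scale, which understates those of low genes. Calls and pool orders used genes averaging at least 1 FPKM. The range call was run on simulated data with noise below the median SD of 0.17 here and a step well above the cut-off. Its outcome was thus largely set in advance and does not bear on the calls made here. The 10 genes, the 18 other lists (268 distinct symbols, 233 matched by symbol) and the tests were chosen with earlier results of these data known. Named genes were the 10, both genes of each pair, the 4 most abundant of each functional list, the 2 most abundant of each cell type list, of which not all are printed, and the 3 with the nearest pattern. Some genes that the rule selects are not reported here. Others are named as chosen after seeing values or as cell type markers. Alternatives were a pseudocount of 0.1, rescaling by the median ratio or to an equal sum, other minimum values and each pool left out. Splitting genes at 10 FPKM and adding SCT and MLN to the shares were chosen after seeing the data. Python 3.11.15, numpy 2.4.6, pandas 2.3.3 and matplotlib 3.10.9 were used.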

Additional observations from a re-analysis of the deposited data

How the results depend on the processing

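The summed level and the 50 single levels under alternatives moved by less than the SD between pools. With 3 pools, leaving 1 out cannot move a mean by a full SD, so only the rescalings could have done otherwise. The 11 pairs kept their direction, which leaving out a pool or changing the pseudocount could not alter. At a pseudocount of 0.1, the sizes of 2 pairs moved beyond their SD. In log2, GCG minus PYY became 6.55 and NTS minus PYY 7.18. Neighbouring pairs with 1 direction numbered 4 with all pools and 4 to 8 with a pool left out, 8 without pool 2. Of the 10 genes, 3 differed between pools, with 4 at a pseudocount of 0.1 and 4 after rescaling to an equal sum. The count was 1 among the 7 averaging at least 5 FPKM and 1 to 3 with a pool left out. Over all genes this call gave 817, with 1374 at a pseudocount of 0.1 and 826 after rescaling to an equal sum. At 5 FPKM or more it gave 464 of 8611, or 5.39%. It gave 206 without pool 1, 684 without pool 2 and 185 without pool 3. Of 144 alternatives for the counts in the 18 other lists, 42 moved the count by over 1.5 times. For granule proteins, with 2, these included 4 at a pseudocount of 0.1 and 1 by the median ratio, and for other gut peptides, with 2, they included 4 with no filter on low values. Of the 10 genes, 7 averaged at least 5 FPKM. Of these 7, 0 were highest in pool 3, 3 lowest in pool 1 and 0 lowest in pool 2. Of the 6 averaging at least 10 FPKM, 4 were highest in pool 2, against 26.2% of all genes at that level. Of these 6, 0 were highest in pool 3, 2 lowest in pool 1 and 0 lowest in pool 2. These counts are lower through the smaller number of genes. For the other pool orders at 5 and 10 FPKM, shares of all genes are not given here. With an equal sum, 2 of the 10 genes were lowest in pool 2 and 3 in pool 3. By the median ratio, 4 were lowest in pool 1 and 5 in pool 3. The share of GIP in the sum of all 10 genes, granins included, was 42.8%, and 30.9% when SCT and MLN were added to that sum, lower by construction. The median ratio moved the median of all genes by 0.06, -0.01 and -0.06 in pools 1, 2 and 3. No paired analysis was possible because the labels give 1 group. Depth is unknown, and values near 1 FPKM, such as those of PYY, are the least precise.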
